A study of Mus musculus with 11 samples.

Results

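The genes described here are 29 genes of cholesterol synthesis, uptake and trafficking, measured in the liver of db/db mice given saline or an antibody against the glucagon receptor. They were taken from a list of gene names and found on the array through the RefSeq transcript that each probe was designed on. All 29 matched a probe and all 29 passed the filter on dim probes, out of 15953 genes tested and 20144 genes with a named probe. For each of them the probe used was well above background in the liver channel on all 11 arrays.

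Both groups consisted of db/db mice, which lack a working leptin receptor and become obese and diabetic. The control group received phosphate-buffered saline (PBS; 5 arrays, replicates 1, 3, 4, 5 and 6), and the other received the monoclonal anti-glucagon receptor (anti-GCGR) antibody 3c7.v44 at 5 mg/kg (6 arrays, replicates 1 to 6). Each array carried liver RNA in Cy5 against a pooled mouse reference RNA in Cy3, with no dye swap, so each value below is a log2 ratio of liver over reference and a log2 fold change is the antibody mean minus the PBS mean. The age and sex of the mice, the length of treatment, the state of feeding and whether each array stands for a separate mouse are not given in the labels used here, so p-values here take in only how these samples vary, which may be technical in part.

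One antibody array, anti-GCGR replicate 5, lay nearer to the PBS arrays than to its own group over the genome. On a scale where 0 is the PBS mean and 1 the antibody mean, over the genes called when an array was left out, it lay at 0.19, while the other antibody arrays lay between 0.90 and 1.24. PBS replicate 5 lay at 0.29 and the other PBS arrays between -0.03 and 0.10. The groups below follow the labels, and the main results are also given without anti-GCGR replicate 5.

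Cells make cholesterol from acetyl-CoA through mevalonate, which is converted to isoprenoid units, joined to squalene, closed into a ring by way of lanosterol and trimmed to cholesterol. The transcription factor SREBP2 turns these enzymes on together when sterol in the endoplasmic reticulum is low, and Insig proteins hold it back when sterol is plentiful. The liver also stores cholesterol as esters, moves it between lysosome, endoplasmic reticulum and plasma membrane, takes it up from lipoproteins and secretes it into bile. Glucagon is the pancreatic hormone of fasting and acts on hepatocytes through the receptor that the antibody binds.

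Most enzymes of the pathway had higher mean values in antibody-treated livers, but the arrays of that group lay far apart and few genes passed the test. Aacs and Soat2 rose and Ebp fell, and the other 26 genes did not pass the threshold of an adjusted p of 0.05 in the limma fit over all genes. Of the 15953 genes tested, 1432 (8.98%) passed as higher and 904 (5.67%) as lower, so the 2 higher and 1 lower of 29 were near the share over all genes. With each array centred on its median in place of loess the split over all genes turned to 582 higher and 2146 lower, and with the ratio of the scanner software to 980 and 1184, while Aacs rose and Ebp fell under both. The log2 fold change was positive in 22 of the 29 genes (75.9%), against 53.7% of all genes, and its median was 0.30, against 0.01 over all genes. Without the array of anti-GCGR replicate 1 this median was 0.14, and without replicate 5 it was 0.42. Single arrays also changed the counts: 1 gene was called higher without PBS replicate 3 and 9 without anti-GCGR replicate 5, and 0 were called lower when any of PBS replicates 1, 3 and 4 or replicate 4 of the antibody group was left out. Over all genes those fits called 5.73% and 14.4% higher, and 2.87% to 3.35% lower. An unadjusted p under 0.05 was found for 9 of the 29 genes (31.0%), near the 30.5% of all genes. Of the 29 genes, 8 (27.6%) passed that mark with a positive fold change, against 17.7% of all genes. The PBS and antibody arrays were fully separated in 0 of the 29 genes and in 1061 of all genes (6.65%). At that share only a few of 29 genes would be counted. In whole liver, a change in the number of cells of a type and a change in RNA per cell cannot be told apart.

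**Figure D1:**
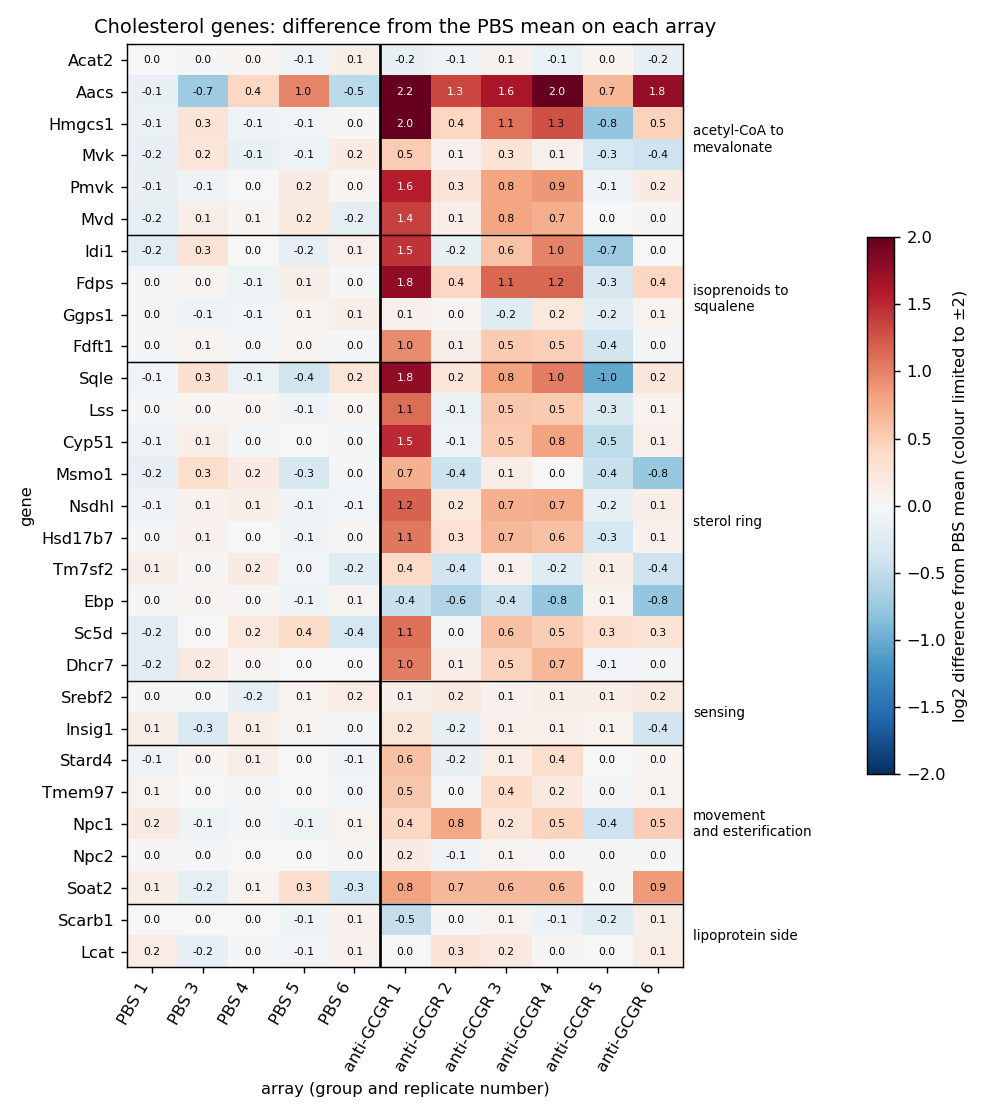
Difference of each cholesterol gene from its PBS mean on each array, as log2 (colour, limited to ±2; the number in each cell is the value). Rows are the 29 genes in pathway order with their roles at the right, columns the 5 PBS arrays and 6 anti-GCGR arrays; most enzymes from Hmgcs1 to Dhcr7 were high on anti-GCGR replicate 1, intermediate on replicates 3 and 4, near the PBS arrays on replicates 2 and 6, and at or below them on replicate 5.

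Promoter windows of RefSeq (assembly GRCm38.p6, 250 bases before to 50 bases after the start of transcription) were at hand for 22 of the 29 genes. Sqle, Fdps, Fdft1, Stard4, Soat2, Npc1 and Scarb1 had none. The following 4 motifs were searched on both strands, each counted separately: an SRE-like sequence TCACNCCAC, of the kind that SREBP proteins bind, the CCAAT box, which NF-Y binds beside SREBP in many sterol promoters, the GC box GGGCGG of Sp1, and CACGTG, the E-box. The CCAAT box was found in 20 of the 22 genes (90.9%), all but Aacs and Acat2, against 41.1% of 27025 genes and 37.4% of all windows of this length. GGGCGG was found in 18 of 22 genes (38.2% of all genes and 35.7% of all windows), CACGTG in 4 of 22 (8.09% and 7.15%) and TCACNCCAC in 1 of 22, Hmgcs1 (1.44% and 1.24%). These matches describe letters in the windows and say nothing of binding in these livers.

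The windows of 4 genes are shown: Hmgcs1 and Mvd, which did not pass the test, Aacs, which rose, and Ebp, which fell. Hmgcs1, Mvd and Aacs all had their highest antibody value on anti-GCGR replicate 1. Capitals mark CCAAT, also as its reverse complement, and, in Hmgcs1, the SRE-like match TCACCCCAC, which starts at position -137 from the start of transcription. The windows lie at chr13:119690101-119690400 on the plus strand (Hmgcs1), chr8:122443373-122443672 on the minus strand (Mvd), chr5:125475623-125475922 on the plus strand (Aacs) and chrX:8193463-8193762 on the minus strand (Ebp), and each is printed 5′ to 3′ along its gene.
Hmgcs1: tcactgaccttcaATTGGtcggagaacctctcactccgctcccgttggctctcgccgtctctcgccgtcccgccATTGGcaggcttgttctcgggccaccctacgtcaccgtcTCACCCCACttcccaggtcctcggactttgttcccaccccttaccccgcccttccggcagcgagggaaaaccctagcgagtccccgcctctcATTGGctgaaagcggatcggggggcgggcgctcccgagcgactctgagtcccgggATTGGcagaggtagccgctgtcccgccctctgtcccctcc
Mvd: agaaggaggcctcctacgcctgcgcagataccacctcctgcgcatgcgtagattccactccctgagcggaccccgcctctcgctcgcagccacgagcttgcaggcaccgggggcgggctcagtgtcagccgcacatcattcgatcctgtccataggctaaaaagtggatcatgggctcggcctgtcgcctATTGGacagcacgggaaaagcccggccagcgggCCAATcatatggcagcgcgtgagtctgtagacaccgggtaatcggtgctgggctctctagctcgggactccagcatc
Aacs: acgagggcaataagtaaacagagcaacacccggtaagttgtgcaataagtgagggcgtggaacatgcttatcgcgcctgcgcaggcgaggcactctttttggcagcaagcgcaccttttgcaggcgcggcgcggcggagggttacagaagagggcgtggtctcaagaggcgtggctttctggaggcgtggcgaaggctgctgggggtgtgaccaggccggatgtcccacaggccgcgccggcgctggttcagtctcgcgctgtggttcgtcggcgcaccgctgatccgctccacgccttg
Ebp: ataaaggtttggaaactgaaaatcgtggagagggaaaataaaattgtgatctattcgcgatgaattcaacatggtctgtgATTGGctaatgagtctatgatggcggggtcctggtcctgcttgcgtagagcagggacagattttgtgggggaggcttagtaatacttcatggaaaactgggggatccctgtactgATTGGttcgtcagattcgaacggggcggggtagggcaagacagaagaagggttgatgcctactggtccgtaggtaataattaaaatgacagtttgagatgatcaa
The window of Hmgcs1 held 4 CCAAT matches, that of Mvd 2, that of Ebp 2 and that of Aacs 0. The CCAAT box was in 20 of the 22 genes with a window, and the SRE-like match in Hmgcs1 alone. A relation of either motif to the direction of change was not tested.

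Of the 6 enzymes that lead from acetyl-CoA to activated isoprenoids, 1 rose, 0 fell and 5 did not pass. Their median log2 fold change was 0.55, or 0.37 without anti-GCGR replicate 1. Aacs, acetoacetyl-CoA synthetase, lets the cell use the ketone body acetoacetate as carbon for sterols and fatty acids, and had the largest change of the 29 genes. The gene spans 125475873 to 125517405 of chromosome 5. Its log2 ratio was 0.38, -0.19, 0.94, 1.50 and -0.02 on the PBS arrays of replicates 1, 3, 4, 5 and 6. On anti-GCGR replicates 1 to 6 it was 2.69, 1.86, 2.15, 2.54, 1.18 and 2.28, with a median of 2.22. Only anti-GCGR replicate 5 lay below the highest PBS array, which was PBS replicate 5. This gave a log2 fold change of 1.60 ± 0.31 (SE), a 3.02-fold rise (adjusted p = 0.0087), and it stayed between 1.42 and 1.84 and past the threshold without each array in turn.

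Hmgcs1, the cytosolic enzyme that makes HMG-CoA, held between 0.86 and 1.24 on all PBS arrays, with 0.86, 1.24, 0.90, 0.93 and 1.01 on replicates 1, 3, 4, 5 and 6. On anti-GCGR replicates 1 to 6 it was 3.02, 1.40, 2.07, 2.26, 0.21 and 1.45 (median 1.76). It was thus above every PBS array on 5 antibody arrays and below every PBS array on replicate 5. Its log2 fold change was 0.75 ± 0.37 (SE; adjusted p = 0.189).

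Pmvk, the phosphomevalonate kinase, was 0.79, 0.86, 0.94, 1.10 and 0.97 on PBS replicates 1, 3, 4, 5 and 6. It was 2.50, 1.20, 1.72, 1.79, 0.87 and 1.09 on anti-GCGR replicates 1 to 6 (median 1.46). Replicates 1 to 4 of the antibody group were above the PBS range and replicates 5 and 6 were inside it. This came to a log2 fold change of 0.60 ± 0.23 (SE; adjusted p = 0.101), and a further probe of the gene gave 0.70.

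Mvd, which decarboxylates mevalonate diphosphate, was -0.15, 0.18, 0.10, 0.24 and -0.15 on PBS replicates 1, 3, 4, 5 and 6. It was 1.42, 0.18, 0.83, 0.77, 0.05 and 0.06 on anti-GCGR replicates 1 to 6 (median 0.48). Here replicates 1, 3 and 4 were above the PBS range and the other three inside it. Its log2 fold change was 0.51 ± 0.22 (SE; adjusted p = 0.136).

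The remaining enzymes of this stretch differed little in mean. Acat2, the cytosolic thiolase that condenses acetyl-CoA (not the esterifying enzyme of the same protein name, which is encoded by Soat2), had a log2 fold change of -0.06 ± 0.06 (SE). Mvk, the mevalonate kinase, had 0.03 ± 0.15 (SE). Mvk ran from 0.46 to 0.87 on the PBS arrays and from 0.21 to 1.14 on the antibody arrays, highest again on anti-GCGR replicate 1.

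**Figure D2:**
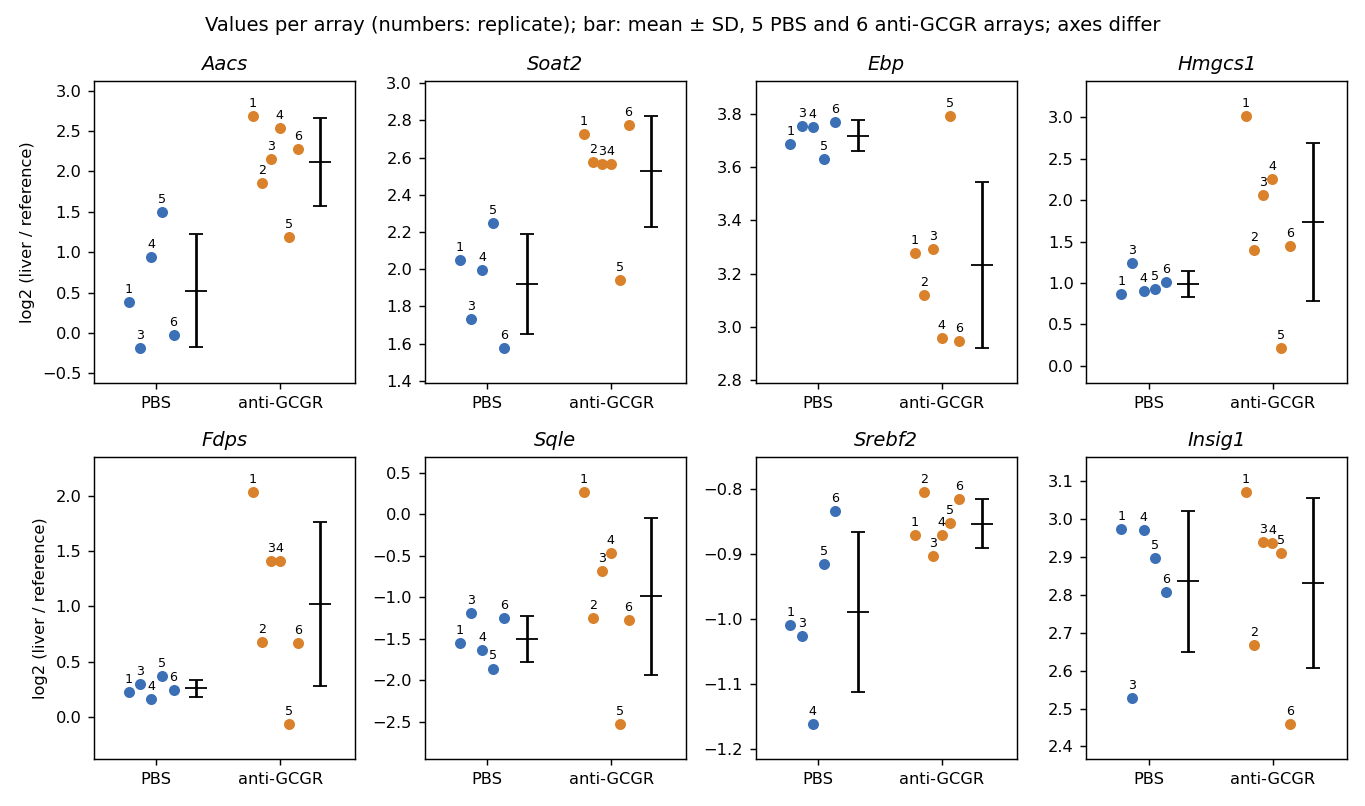
Log2 ratio of liver over reference for 8 cholesterol genes on each array, PBS in blue and anti-GCGR in orange, with the replicate number at each point and the mean ± SD beside it (5 PBS and 6 anti-GCGR arrays; the vertical axes differ between panels). For Aacs, Soat2 and Ebp, 5 of the 6 antibody arrays lie outside the PBS range and replicate 5 inside or just above it, for Hmgcs1, Fdps and Sqle the antibody arrays spread to both sides of the PBS arrays, and Srebf2 and Insig1 overlap.

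Of the 4 genes from isoprenoid units to squalene, 0 passed the limma test and 1, Fdps, had an unadjusted p under 0.05, with a median log2 fold change of 0.32, or 0.14 without anti-GCGR replicate 1. Fdps makes farnesyl diphosphate, the branch point to sterols, ubiquinone, dolichol and prenylated proteins. On PBS replicates 1, 3, 4, 5 and 6 it was 0.22, 0.30, 0.17, 0.37 and 0.25, a narrow band. On anti-GCGR replicates 1 to 6 it was 2.04, 0.68, 1.41, 1.41, -0.06 and 0.67 (median 1.04). It was above all PBS arrays on 5 antibody arrays and below all of them on replicate 5. Its log2 fold change was 0.76 ± 0.28 (SE; adjusted p = 0.0883).

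Idi1, the isopentenyl diphosphate isomerase, ran from 0.99 to 1.48 on the PBS arrays and from 0.47 on anti-GCGR replicate 5 to 2.65 on replicate 1, with a log2 fold change of 0.36 ± 0.31 (SE). Fdft1, squalene synthase, held between 1.19 and 1.28 on the PBS arrays and ran from 0.86 on anti-GCGR replicate 5 to 2.18 on replicate 1. Its log2 fold change was 0.28 ± 0.18 (SE), and 0.09 by a further probe. Ggps1, which makes geranylgeranyl diphosphate for the non-sterol branch, had -0.01 ± 0.08 (SE), and its highest and lowest antibody arrays were replicates 4 and 3.

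Of the 10 enzymes that close and modify the sterol ring, 0 rose, 1 fell and 9 did not pass, with a median log2 fold change of 0.38. An unadjusted p under 0.05 was found for 3 of the 10, near the share over all genes, 2 of them higher, Nsdhl and Sc5d. Without anti-GCGR replicate 1 the median was 0.20. Ebp, the sterol isomerase that moves a double bond in the ring, was the gene that fell. It spans 8185329 to 8193512 of chromosome X. Its log2 ratio was 3.69, 3.76, 3.75, 3.63 and 3.77 on PBS replicates 1, 3, 4, 5 and 6. On anti-GCGR replicates 1 to 6 it was 3.28, 3.12, 3.29, 2.96, 3.79 and 2.95 (median 3.20). The antibody arrays other than replicate 5 were all below the PBS range, and replicate 5 was above it. The log2 fold change was -0.49 ± 0.13 (SE; adjusted p = 0.0229). The call was lost without PBS replicate 1 (adjusted p = 0.0508), PBS replicate 3 (0.0526), PBS replicate 4 (0.0508) or anti-GCGR replicate 4 (0.0514), with fold changes between -0.50 and -0.43. In the liver channel alone the log2 fold change of Ebp was -0.35 (limma adjusted p = 0.0259). The Cy3 channel differed by 0.14 at this probe (limma adjusted p = 0.279).

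Sqle, squalene epoxidase, was -1.55, -1.20, -1.64, -1.86 and -1.25 on PBS replicates 1, 3, 4, 5 and 6. It was 0.27, -1.25, -0.69, -0.47, -2.53 and -1.28 on anti-GCGR replicates 1 to 6 (median -0.97). Replicates 1, 3 and 4 were above the PBS range, replicates 2 and 6 inside it and replicate 5 below it. Its log2 fold change was 0.51 ± 0.37 (SE; adjusted p = 0.393), with a 95% interval from -0.29 to 1.31.

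The enzymes on either side of lanosterol also had their highest antibody array in replicate 1 and their lowest in replicate 5. Lss, which closes squalene epoxide to lanosterol, held between 0.57 and 0.68 on the PBS arrays and ran from 0.35 on anti-GCGR replicate 5 to 1.75 on replicate 1 (log2 fold change 0.30 ± 0.20, SE). Cyp51, the lanosterol demethylase, held between -0.03 and 0.19 on the PBS arrays and ran from -0.46 on anti-GCGR replicate 5 to 1.55 on replicate 1 (0.39 ± 0.27, SE). Nsdhl and Hsd17b7 act with Msmo1 to remove the methyl groups at carbon 4 of the ring. Nsdhl had a log2 fold change of 0.47 ± 0.19 (SE; adjusted p = 0.121) and Hsd17b7 0.39 ± 0.19 (SE; adjusted p = 0.184), each above the PBS range on 5 antibody arrays and below it on replicate 5.

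Msmo1, the methyl oxidase itself, had a log2 fold change of -0.13 ± 0.22 (SE). It was above the PBS range on anti-GCGR replicate 1 alone and below it on replicates 2, 5 and 6. Tm7sf2, a sterol reductase, had -0.07 ± 0.14 (SE). Sc5d and Dhcr7 act late in the pathway. Sc5d had 0.47 ± 0.18 (SE; adjusted p = 0.0948) and Dhcr7 0.37 ± 0.17 (SE; adjusted p = 0.174), and neither had an antibody array below the PBS range.

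The 2 genes of sterol sensing did not pass the test, though Srebf2 had an unadjusted p of 0.0349. Srebf2, which encodes SREBP2, was -1.01, -1.03, -1.16, -0.92 and -0.83 on PBS replicates 1, 3, 4, 5 and 6. On anti-GCGR replicates 1 to 6 it was -0.87, -0.80, -0.90, -0.87, -0.85 and -0.82 (median -0.86). The antibody arrays lay close together at the upper end of the PBS range or just above it. The log2 fold change was 0.14 ± 0.06 (SE; adjusted p = 0.131; 95% interval 0.01 to 0.26), and a further probe of the gene gave -0.03. Insig1, which retains SREBP in the endoplasmic reticulum and is itself a target of SREBP, had a log2 fold change of -0.0045 with a 95% interval from -0.25 to 0.24. Insig1 ran from 2.53 to 2.97 on the PBS arrays and from 2.46 on anti-GCGR replicate 6 to 3.07 on replicate 1, so that replicate 5, the lowest array for many of the enzymes, was inside the PBS range at 2.91.

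Of the 5 genes of cholesterol movement and esterification, 1 rose and 0 fell, with a median log2 fold change of 0.18, or 0.11 without anti-GCGR replicate 1. Soat2, the acyltransferase that esterifies cholesterol for storage and lipoprotein export in hepatocytes, was the one that rose. The gene spans 102150415 to 102163469 of chromosome 15. Its log2 ratio was 2.05, 1.73, 2.0, 2.25 and 1.58 on PBS replicates 1, 3, 4, 5 and 6. On anti-GCGR replicates 1 to 6 it was 2.73, 2.57, 2.57, 2.57, 1.94 and 2.77 (median 2.57). All antibody arrays but replicate 5 were above the PBS range, and replicate 5 was inside it. The log2 fold change was 0.60 ± 0.15 (SE), a 1.52-fold rise (adjusted p = 0.0196). The call was lost without PBS replicate 3 (0.56, adjusted p = 0.0514) and with the ratio of the scanner software (0.49, adjusted p = 0.0811).

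Npc1, the lysosomal membrane protein that exports cholesterol, ran from 2.29 to 2.55 on the PBS arrays and from 1.97 on anti-GCGR replicate 5 to 3.16 on replicate 2. It was above the PBS range on the other 5 antibody arrays, with a log2 fold change of 0.33 ± 0.16 (SE; adjusted p = 0.190). Npc2, its soluble partner in the lysosome, had 0.02 ± 0.05 (SE). Tmem97, a membrane protein that binds Npc1, had 0.18 ± 0.10 (SE; adjusted p = 0.228). Stard4, a soluble sterol carrier, had 0.16 ± 0.11 (SE), whereas a further kept probe of the gene gave -0.23, so its probes differed in sign.

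The 2 genes of the lipoprotein side did not pass, with 0 at an unadjusted p under 0.05. Lcat, the plasma enzyme that esterifies cholesterol on HDL, was 4.35, 4.04, 4.17, 4.15 and 4.28 on PBS replicates 1, 3, 4, 5 and 6. It was 4.21, 4.46, 4.40, 4.22, 4.21 and 4.34 on anti-GCGR replicates 1 to 6 (median 4.28), overlapping the PBS arrays on all but replicates 2 and 3. The resulting log2 fold change was 0.11 ± 0.07 (SE; adjusted p = 0.326). The sign turned when the liver channel was read without the reference (-0.24, adjusted p = 0.0481). The Cy3 channel, which held the same reference RNA on every array, itself differed by -0.35 at this probe (adjusted p = 0.0043), and the cause was not tested. Scarb1, the HDL receptor SR-BI, had -0.10 ± 0.09 (SE), with its lowest value, 1.44, on anti-GCGR replicate 1.

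**Figure D3:**
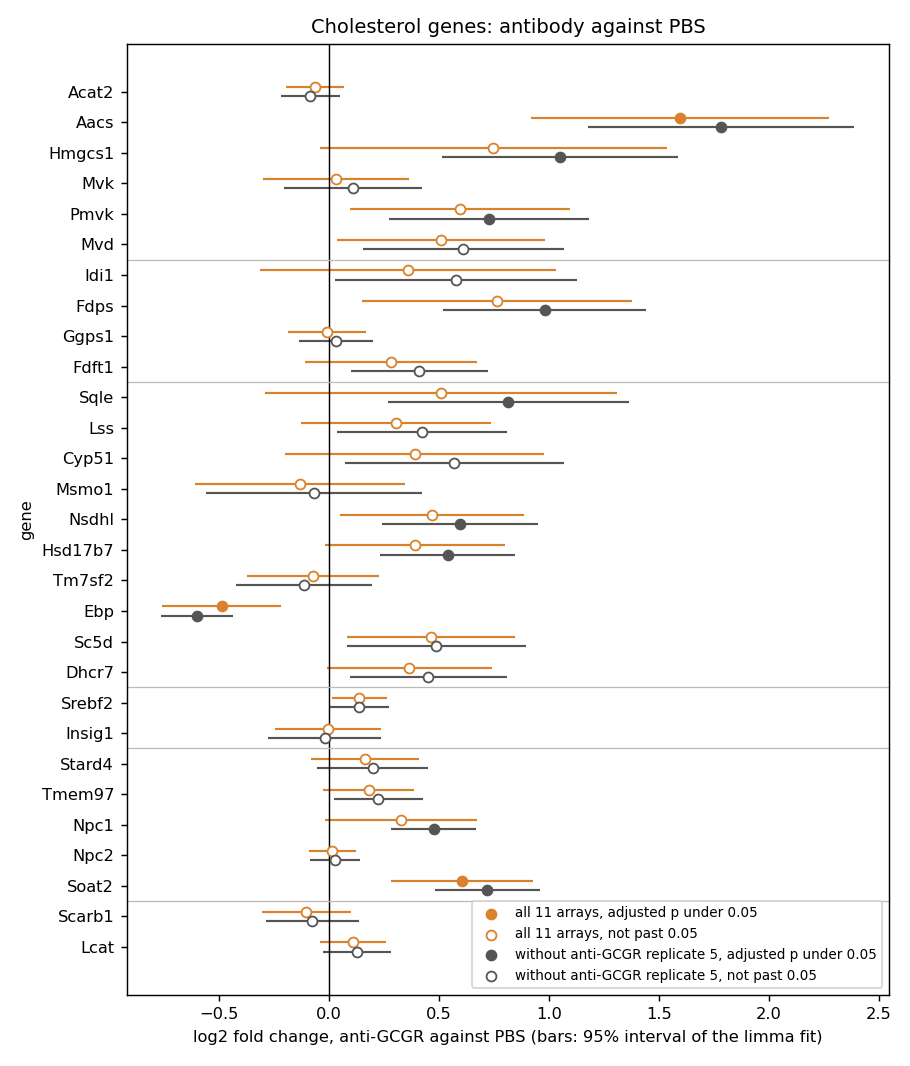
Log2 fold change of each cholesterol gene, anti-GCGR against PBS, with the 95% interval of the limma fit, over all 11 arrays (orange) and without anti-GCGR replicate 5 (grey); filled points had an adjusted p under 0.05. Over all arrays 3 points are filled (Aacs, Soat2 and Ebp), and without that array 10 are.

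The antibody arrays differed from each other far more than the PBS arrays did for the synthesis enzymes. Over the 20 enzymes from Acat2 to Dhcr7, the median SD was 0.129 on the PBS arrays and 0.508 on the antibody arrays, against 0.103 and 0.121 over all genes. The SD was larger in the antibody group for 19 of the 20 enzymes (95%; all genes 63.1%), the exception being Aacs. It was over 3 times larger for 12 of the 20 (all genes 5.91%). The largest ratios of the SDs were 10.4 for Lss, 10.1 for Fdft1, 9.44 for Fdps, 8.78 for Cyp51 and 8.15 for Hsd17b7. Genes outside synthesis also spread more widely, with ratios of 5.14 for Tmem97, 3.81 for Scarb1, 3.58 for Npc1 and 3.37 for Npc2. Over all 29 genes the SD was larger in the antibody group for 26, and over 3 times larger for 16. Srebf2 went the other way, with an SD of 0.124 on the PBS arrays and 0.0374 on the antibody arrays, as did Lcat (0.122 and 0.110).

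**Figure D4:**
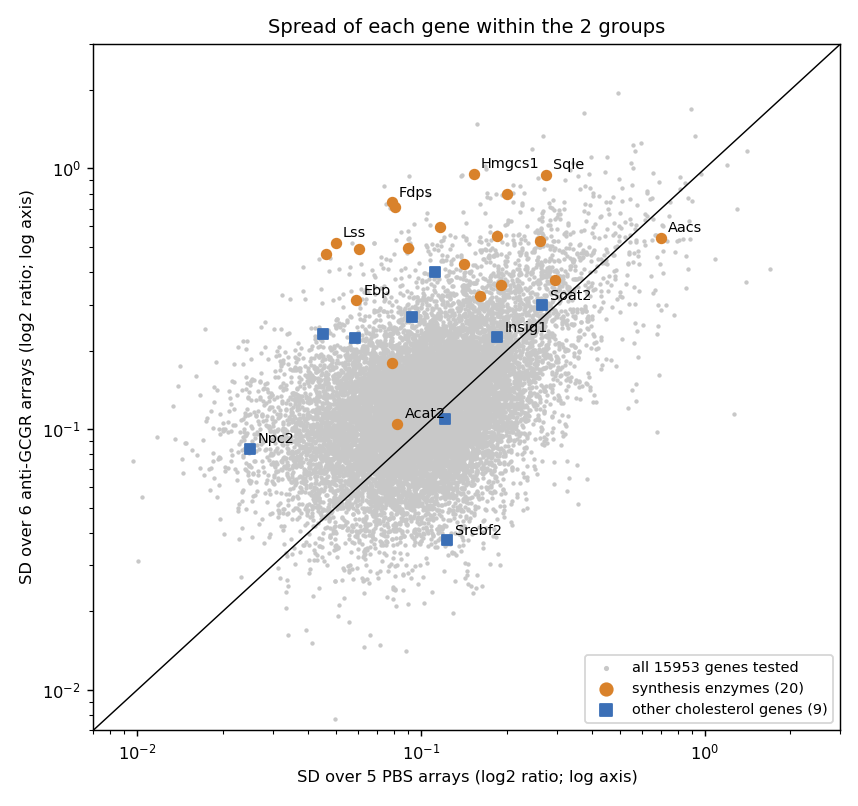
SD of each gene over the 5 PBS arrays (horizontal, log axis) against its SD over the 6 anti-GCGR arrays (vertical, log axis), with the line of equal SD. Grey points are all 15953 genes tested, orange circles the 20 synthesis enzymes and blue squares the other 9 cholesterol genes. All synthesis enzymes but Aacs lie above the line, as do the other cholesterol genes except Srebf2 and Lcat.

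The spread had an order that most enzymes shared. The median deviation of the 20 enzymes from their PBS means was 1.11 on anti-GCGR replicate 1, 0.63 on replicate 4, 0.56 on replicate 3, 0.10 on replicate 2, 0.07 on replicate 6 and -0.25 on replicate 5. On the PBS arrays it lay between -0.07 and 0.07. Anti-GCGR replicate 1 was the highest antibody array for 17 of the 20 enzymes (all genes 17.4%) and replicate 5 the lowest for 13 (all genes 25.9%), and both held for 13 (all genes 6.84%). On replicate 1, 17 of the 20 enzymes were above their highest PBS array (all genes 30.5%), and 13 exceeded their PBS mean by over 1 (all genes 1.05%). Replicates 3 and 4 each had 15 enzymes above the highest PBS array (all genes 28.6% and 29.2%). Replicate 2 had 7 (35%) and replicate 6 had 6 (30%), near the 29.3% and 26.9% of all genes. Replicate 5 had 1 above, Ebp (all genes 20.8%), and 12 below the lowest PBS array (all genes 18.1%). These values share an array and the enzymes are not independent of each other, so they describe the arrays and carry no test.

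Without anti-GCGR replicate 5, 14.4% of all genes passed as higher and 9.87% as lower, and of the cholesterol genes 9 of 29 rose and 1 fell. The 9 were Aacs (1.78 ± 0.28, SE), Hmgcs1 (1.05 ± 0.25), Fdps (0.98 ± 0.21), Sqle (0.82 ± 0.25), Pmvk (0.73 ± 0.21), Soat2 (0.72 ± 0.11), Nsdhl (0.60 ± 0.16), Hsd17b7 (0.54 ± 0.14) and Npc1 (0.47 ± 0.09), with Ebp at -0.60 ± 0.08 on the lower side. The adjusted p was 0.0089 for Hmgcs1, 0.0056 for Fdps and 0.0334 for Sqle in this fit. The array left out was singled out by its position in these same data, while PBS replicate 5 was kept. It was the lowest antibody array for all 9 genes and the highest for Ebp. Leaving it out therefore enlarges these fold changes by construction, and the p-values of this fit give them no separate support. Without anti-GCGR replicate 1 the same genes as over all arrays passed, 2 higher and 1 lower, where 6.51% of all genes passed as higher and 3.92% as lower. No array was left out of the main comparison.

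The arrays came on 3 slides, and the difference between the groups varied between them. Slide 1 held PBS replicates 1 and 4 and anti-GCGR replicates 1 and 4, and there the median difference of the 29 genes was 0.62, with 24 positive. Slide 3, with PBS replicates 3 and 6 and anti-GCGR replicates 3 and 6, gave 0.23 and 23 positive. Slide 2 held PBS replicate 5 and anti-GCGR replicates 2 and 5 and gave -0.07, with 9 positive. For Aacs the differences within slides 1, 2 and 3 were 1.96, 0.02 and 2.32, for Soat2 0.62, 0.01 and 1.02, and for Ebp -0.60, -0.17 and -0.64. For Hmgcs1 they were 1.76, -0.12 and 0.63, and for Fdps 1.53, -0.07 and 0.77. Both arrays numbered 5 are on slide 2, so slide and array cannot be told apart there. With the slide as a block, Aacs, Soat2, Fdps and Nsdhl rose and Ebp fell, in a fit that called 10.9% of all genes higher and 6.6% lower.

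Other genes of sterol control were counted in the same main fit over all arrays, which called 8.98% of all genes higher and 5.67% lower. Among 14 reported genes of the SREBP machinery and further sterol targets, 2 rose, 0 fell and 12 did not pass, with a median log2 fold change of 0.08. Those that rose were Insig2 (0.59 ± 0.16, SE; adjusted p = 0.0296), the second SREBP-retaining protein, and Srebf1 (0.57 ± 0.15, SE; adjusted p = 0.0223), whose SREBP1c product drives fatty acid synthesis.

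Among 13 genes of efflux, LXR and ester hydrolysis, 4 rose and 0 fell (all genes 8.98% and 5.67%), with a median of 0.14. Pltp, which transfers phospholipid to HDL and is a target of the sterol receptor LXR, rose by 0.98 ± 0.20 (SE), with all antibody arrays above all PBS arrays (adjusted p = 0.0092). Nceh1, a cholesteryl ester hydrolase, rose by 0.67 ± 0.14 (adjusted p = 0.0104), the exporter Abcg1 by 0.41 ± 0.09 (adjusted p = 0.0154) and the lysosomal lipase Lipa by 0.28 ± 0.09 (adjusted p = 0.0491). The exporters Abca1 (0.10 ± 0.07), Abcg5 (0.09 ± 0.08) and Abcg8 (-0.11 ± 0.11) did not pass. Of 11 genes of other sterol movement, 0 passed the limma test, while 4 had an unadjusted p under 0.05. Of 10 genes of the isoprenoid branches, 0 rose and 1 fell, Pdss2 of ubiquinone synthesis (-0.38 ± 0.12, SE; adjusted p = 0.0481).

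The tissue carried hepatocyte markers at high ratios on all arrays. The mean log2 ratio of the 9 measured hepatocyte markers of 10 listed was 5.88 to 6.09 on the PBS arrays and 5.81 to 6.05 on the antibody arrays, and 0 of the 9 passed the test. Their fold changes were mostly negative (2 of 9 positive), and 5 had an unadjusted p under 0.05, 1 of them positive. Some markers of other cells passed as higher, in a fit that called 8.98% of all genes higher. Of 8 stellate and fibroblast markers 5 rose. Their mean deviation from PBS was 0.24 to 0.86 on the antibody arrays against -0.15 to 0.16 on the PBS arrays. It was 0.35 on anti-GCGR replicate 1 and 0.24 on replicate 5, the 2 arrays at the ends of the enzymes' range. On those 2 arrays endothelial markers had 0.36 and -0.04, Kupffer and macrophage markers 0.29 and -0.08 and adipocyte markers 0.74 and 0.13. Hepatocyte markers had -0.14 and -0.05, cholangiocyte 0.10 and 0.03, lymphocyte 0.05 and 0.09 and erythroid -0.10 and 0.29. Pancreas acinar markers had 0.05 and 0.06 and the steroid cell marker -0.13 and 0.14. Endothelial markers rose for 3 of 8 (mean deviation -0.04 to 0.43 on the antibody arrays, -0.13 to 0.08 on the PBS arrays). Kupffer and macrophage markers rose for 2 of 9 measured (-0.08 to 0.42, PBS -0.13 to 0.32) and adipocyte markers for 1 of 5 measured (0.13 to 1.31, PBS -0.33 to 0.31). The adipocyte mean rested mainly on Cidea, which rose by 2.54 ± 0.71 (SE), and on Cfd, which did not pass (adjusted p = 0.0527). The other adipocyte markers, Retn (0.16), Plin1 (0.04) and Adipoq (-0.21), did not pass either, so a general rise of adipocyte markers was not seen. Of 2 measured erythroid markers 1 rose, and of the measured cholangiocyte, lymphocyte, pancreas acinar and steroid cell markers 0 passed, while 1 cholangiocyte and 1 pancreas marker had an unadjusted p under 0.05. Serpina1b, Cd68 and Lep were among the listed markers that did not pass the filter on dim probes or had no named probe. The part of these cells in the cholesterol values was not tested.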

How the data were processed

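Liver RNA of 5 PBS and 6 anti-GCGR samples (groups from the titles) was compared on 11 two-colour Agilent arrays. The scans were extracted by Feature Extraction 11 (submitters' processing notes; 11.5.1.1 in the headers). As deposited, each scanner file gives raw median intensity values for the dyes and their background, processed signals with a log10 ratio, and flags of 0 or 1 per spot, per the file headers. A log2 ratio per probe was deposited as well, in a table made in a way not given in the sources used here. Its columns ran as Cy5 over Cy3, correlated at 0.999964 or higher with the values computed here, and had medians of -0.0026, 0.0022, 0.00079, 0.0081 and 0.00021 (PBS 1, 3, 4, 5 and 6) and -0.00096, 0.0075, 0.0015, -0.0028, 0.0054 and 0.0013 (anti-GCGR 1 to 6).

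With limma 3.58.1 in R 4.3.3, the median signals were corrected by normexp (offset 50) and loess-normalized within arrays, with control spots at weight 0, uneven spots left out and spots of a probe averaged. The design had named mean signals first, with medians where the files hold only those. Probes were named through their RefSeq accession in a table of assembly GRCm38.p6 (26581 of 39429 probes). A probe had to be well above background in the liver channel on 5 or more arrays, and the brightest kept probe stood for its gene (15953 genes). Groups were compared with lmFit and eBayes, two-sided, p-values were adjusted by Benjamini-Hochberg over all of them, and the fit was tested on simulated data. The simulated noise was independent between genes with the same SD in both groups, so it did not cover the wider antibody spread of the enzymes. Median Cy5 signals were 85 to 110 per array over a background of 26 to 27, with 0 saturated spots; the number of arrays limits the precision.

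All 29 cholesterol genes are reported. Those past the threshold, the 6 largest fold changes and the largest of each role are given array by array, and other genes are named from lists when they pass or are key genes. The genes and lists were chosen with earlier results of these data known. A few listed genes (5) are not reported here. Alternatives covered normalization, background, filters, probe choice, slide, replicate number, array weights and each array left out.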

Additional observations from a re-analysis of the deposited data

Results flagged for a closer look

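For Soat2, anti-GCGR replicate 5 lay apart from its group, at a log2 ratio of 1.94 where the nearest antibody array was at 2.57, a gap of 0.752 of the whole range of that group (Dixon's test). This was 1 of 58 groups looked at (29 genes in each of 2 groups), and chance alone marks about 1 in 20.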

How the results depend on the processing

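Aacs rose in all 11 fits without 1 array and in all 16 other alternatives that gave a test, Soat2 in 10 of 11 and 14 of 16, and Ebp fell in 7 of 11 and 15 of 16. Several of the 16 could not move the fold changes of these genes, each of which had 1 kept probe. They stayed at 1.60, 0.60 and -0.49 with probe means, other filters, unnamed probes, brightness quantiles between arrays and robust eBayes. The deposited value table was also nearly the same as the values used here. The median log2 fold change of the 29 genes was positive in all 27 fits with a test, from 0.14 without anti-GCGR replicate 1 to 0.42 without anti-GCGR replicate 5, but it was -0.07 within slide 2. The count of genes called higher, 2 over all arrays, was 1 with the ratio of the scanner software, 4 with the slide as a block, 10 with array weights, 9 without both arrays numbered 5, and 1 to 9 without single arrays (1 without PBS replicate 3, 9 without anti-GCGR replicate 5). The count called lower, 1 over all arrays, was 2 in the Cy5 channel alone, which added Lcat, reversed at -0.24, and 0 to 1 without single arrays (0 when any of PBS replicates 1, 3 and 4 or replicate 4 of the antibody group was left out). In 23 further cases, in 6 genes, the sign changed with no call on either side. The cause of these shifts was not tested. Over all genes, in place of 1432 higher and 904 lower, 582 and 2146 were called with median centring, 2225 and 1557 with array weights, 2090 and 1579 without both arrays numbered 5, and 782 to 2294 and 458 to 1574 without single arrays.

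The replicate numbers shared by the groups did not pair the samples: the correlations of the deviations were 0.125, 0.027, -0.013, -0.125 and 0.141 for replicates 1, 3, 4, 5 and 6, and 2 of 10 arrays correlated best with their own number. With the replicate block, over 10 arrays, 1 cholesterol gene was called higher (Aacs) and 0 lower by limma, Soat2 having 0.59 (adjusted p = 0.0862) and Ebp -0.47 (adjusted p = 0.0742). There 11 of the 29 (37.9%) had an unadjusted p under 0.05, against 27.9% of all genes, and over all genes 715 rose and 335 fell in place of 1432 and 904. The limits are the small number of arrays, the wide spread of the antibody arrays and the reference channel, where 336 genes differed between the groups.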
